A study of Sus scrofa with 9 samples.

Results

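Aminoacyl-tRNA synthetases are the enzymes that attach each amino acid to its transfer RNA (tRNA), the step that sets which amino acid a codon brings into a protein. A list of 35 nuclear genes for these enzymes was looked up by gene symbol in the deposited table of 23507 genes, and 33 were found. They comprise 18 of the 19 listed genes whose enzymes work in the cytosol and 15 of the 16 listed genes whose enzymes work in mitochondria. FARSB and AARS2 were not found under these symbols and are not analysed here. The choice of genes used no measured value.

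Animal cells keep separate synthetase sets for the cytosol and for mitochondria, and nuclear genes encode both. The cytosolic enzymes charge tRNAs for nuclear-encoded messages, whereas the mitochondrial enzymes are imported to charge the tRNAs that mitochondrial DNA encodes. GARS1 and KARS1, for glycine and lysine, supply both compartments from 1 gene each and are counted as cytosolic here. EPRS1, for glutamate and proline, joins both activities in a single protein. EPRS1, IARS1, KARS1, LARS1, MARS1, QARS1 and RARS1 encode subunits of the multisynthetase complex, a particle that also holds the scaffold proteins AIMP1, AIMP2 and EEF1E1. In many cell types the transcription factor ATF4 raises several cytosolic synthetase genes when amino acids run short. A maturing oocyte makes little new RNA and translates from stored messages, so synthetase transcripts in an egg are largely a maternal stock.

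Pig (Sus scrofa) oocytes of WT genotype were collected with compact cumulus layers, matured in culture and sampled at metaphase II (MII), where the mature egg arrests. Control oocytes matured at 38.5 °C. Heat stress oocytes (HS) spent 24 h at 41.5 °C from the germinal vesicle stage and then stayed at 38.5 °C until MII. The group HS_Lasp had the same heat with L-Asp in the medium during it. L-Asp is the usual code for L-aspartic acid, and the labels list several concentrations without saying which was sequenced. All groups matured in hormone-supplemented medium with follicular fluid. The labels give 25 oocytes per group and 3 libraries per group, without saying that the libraries are separate animals or cultures. The p-values therefore reflect the spread among the libraries at hand, which may be technical. Polyadenylated RNA was read by sequencing, so a change in poly(A) tails and a change in RNA amount cannot be told apart, and neither can fewer cells of a type and less RNA per cell.

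Total counts were 54965064 to 58361475 in control, 46198885 to 53327419 in HS and 41693395 to 49008681 in HS_Lasp. The counts piled up at multiples of about 4, so a floor of 12 counts, taken as 3 fragments, is 0.229 to 0.284 CPM (counts adjusted for library size). The control libraries differed from each other far less than the heated ones. The median index of dispersion over the measured synthetase genes was 4.29 to 7.33 between control pairs, 75.3 to 119 between HS pairs and 63.7 to 153 between HS_Lasp pairs. Independent single counts give 1 by construction, and independent fragments of about 4 counts each give about 4. The control pairs were thus not far from the sampling noise of fragments. The control was therefore averaged and entered the tests as 1 library. Oocyte markers, of which 15 of 16 were found, summed to 32534 to 32779 CPM in control, 15802 to 20178 in HS and 20054 to 23469 in HS_Lasp, with none at 0 in any library. BTG4 made up much of that sum, at 15798 CPM in control and a mean of 7322 in HS. Of the 15 oocyte markers, 7 lay wholly below control in HS and 3 wholly above, beside 19% and 13.6% of all genes tested. Cumulus and granulosa markers, of which 19 of 23 were found, summed to 250 to 257, 215 to 316 and 261 to 350 CPM. That sum was carried by KITLG, GATA4 and FST, and the single markers differed from it. Of 13 tested, 10 had a fold change above 0 in HS against control and 7 lay wholly above control. Over all genes tested these shares were 50.1% and 13.6%. FST lay wholly below control, at 24.8 to 43.4 CPM in HS against 48.6 to 50.3, and CYP19A1 and KITLG overlapped control. GATA6 and INHBA were at 0 in all control libraries, at 1.26 to 1.60 and 0.608 to 1.03 CPM in HS, and at 0.768 to 1.11 and 0.385 to 0.853 in HS_Lasp. PTX3, a defining marker of expanded cumulus, was at 0 in every library. CYP11A1, a steroid-producing enzyme of granulosa cells, lay at 0 to 0.115 CPM in control, 5.98 to 15.1 in HS and 0.687 to 7.80 in HS_Lasp, and the part of such cells in the results was not tested. The share of counts from mitochondrial DNA was 10.0% to 10.1% in control, but 3.09%, 5.18% and 14.5% in the HS libraries and 5.30%, 9.47% and 9.29% in the HS_Lasp libraries.

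Levels were compared between genes as fragments per kilobase of transcript scaled to library depth (FPKM), which divides out transcript length, using the authors' deposited values averaged with equal weight over the 3 groups. A few transcripts made up most of each class. EPRS1 was the highest cytosolic member at 91.8 FPKM, or 39.5% of the summed cytosolic level, and KARS1 followed at 58.3 FPKM. With TARS1 (threonine, 22.7 FPKM), RARS1 (arginine, 18.0 FPKM) and LARS1 (leucine, 11.7 FPKM), 5 genes held 87.1% of the cytosolic sum. The mitochondrial class was more uneven. RARS2, the mitochondrial arginine enzyme, stood at 70.3 FPKM or 62.4% of its class, and IARS2, for isoleucine, stood at 27.7 FPKM or 24.6%.

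Most members were low. At 10 FPKM or more lay 5 cytosolic and 2 mitochondrial members, and at 1 FPKM or more lay 13 and 5. The median was 2.08 FPKM over the cytosolic members and 0.650 FPKM over the mitochondrial ones. NARS1 (asparagine) was at 9.73 FPKM and WARS1 (tryptophan) at 5.82 FPKM. The cytosolic members SARS1, YARS1, MARS1, GARS1, IARS1 and QARS1 then ranged from 2.87 down to 1.40 FPKM. HARS1 (histidine) was at 0.895 FPKM and AARS1 (alanine) at 0.873. FARSA, the alpha subunit of the phenylalanine enzyme, followed at 0.448 FPKM. CARS1 (cysteine) and VARS1 (valine) lay at 0.0788 and 0.0574 FPKM, close to the floor. In the mitochondrial class WARS2 was at 5.99 FPKM, EARS2 (glutamate) at 2.23 FPKM and CARS2 at 1.50 FPKM. The others lay from 0.869 FPKM for LARS2 down to 0.188 for SARS2. VARS2, at 0.0184 FPKM and at 0 in all HS libraries, was the 1 member that did not pass the filter on low counts, which left 32 tested.

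**Figure D1:**
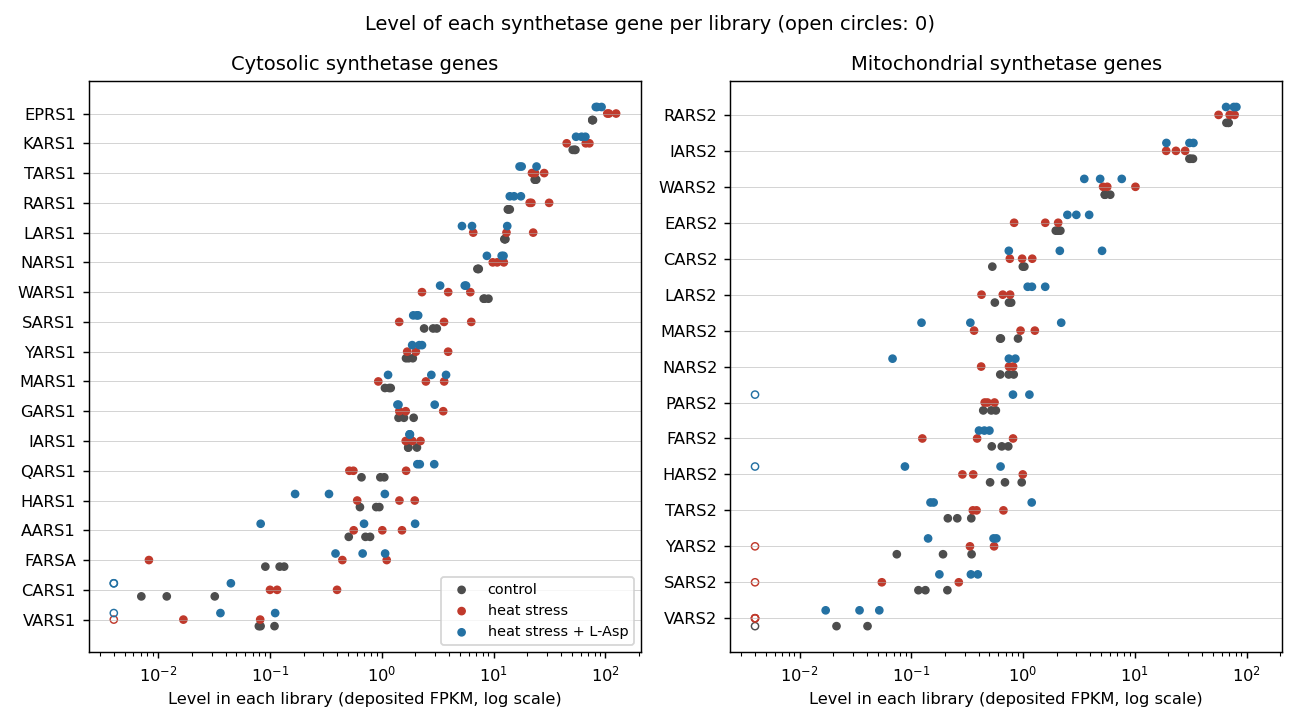
Deposited FPKM (log scale) of each synthetase gene in each library, cytosolic genes on the left and mitochondrial genes on the right, with 1 point per library coloured by group and open circles for values of 0. EPRS1 and KARS1 head the cytosolic class and RARS2 and IARS2 the mitochondrial one, and the libraries of the heated groups scatter more widely than the control libraries for most genes.

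The order of levels was clear at the top of each class. EPRS1 lay above KARS1 in every library, with 76.4, 77.5 and 76.5 FPKM in control, 108, 125 and 104 in HS, and 84.6, 92.5 and 82.1 in HS_Lasp. KARS1 was at 54.0, 51.1 and 53.1 FPKM in control, 45.1, 72.0 and 66.8 in HS, and 61.3, 54.7 and 66.3 in HS_Lasp. The lowest EPRS1 library was thus above the highest KARS1 library. RARS2 likewise exceeded IARS2 everywhere, at 56.2 FPKM or more against 33.5 or less. TARS1 and WARS2, next in their classes, lay below these in all libraries. From there down each pair of neighbours overlapped when the libraries of all groups were pooled, a range that includes differences between groups. Within control some neighbours were apart. TARS1 was at 23.3 to 24.1 FPKM there against 13.4 to 14.0 for RARS1, and WARS2 at 5.39 to 6.03 against 1.96 to 2.16 for EARS2. Other neighbours overlapped within control too, such as HARS1 at 0.637 to 0.951 FPKM and AARS1 at 0.506 to 0.785.

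The share of each transcript in its class also describes the makeup of the set. EPRS1 took 37.1% of the cytosolic sum in control, 41.8% ± 0.837 (SD, n = 3) in HS and 39.1% ± 3.89 in HS_Lasp. RARS1 took 6.59% in control, 9.12% ± 1.00 in HS and 7.02% ± 0.471 in HS_Lasp. WARS1 went the other way, with 4.10%, 1.50% ± 0.548 and 2.21% ± 0.679. Within the mitochondrial class RARS2 held 60.1%, 64.4% ± 8.56 and 62.8% ± 7.44, and IARS2 held 28.2%, 22.4% ± 5.06 and 23.3% ± 6.03.

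Summed over members, the cytosolic class stood highest and the mitochondrial class lowest under heat alone. The cytosolic sum was 206.8, 207.7 and 206.5 FPKM in the control libraries, 255.9, 305.5 and 245.3 in HS, and 233.8, 212.5 and 218.3 in HS_Lasp. All HS sums lay above all others, and the HS mean was 268.9 ± 32.1 (SD, n = 3), 1.30 times the control mean in FPKM. The mitochondrial sum was 109.5, 113.0 and 116.4 FPKM in control, 105.6, 102.5 and 109.5 in HS, and 123.9, 115.0 and 117.7 in HS_Lasp. HS was the lowest group here, at 105.8 ± 3.53, but its highest library touched the lowest control library (109.51 against 109.54 FPKM). In counts per kilobase scaled by the trimmed mean of M values (TMM), the HS mean stood at 1.16 times the control mean for the cytosolic class. For the mitochondrial class it stood at 0.846 times instead of 0.937 times in FPKM. On the TMM scale the mitochondrial sums were 119 to 126 in control and 92.2 to 113 in HS, which did not overlap.

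The ratio of cytosolic to mitochondrial FPKM within a library does not depend on how libraries are scaled. It was 1.89, 1.84 and 1.77 in control, 2.42, 2.98 and 2.24 in HS, and 1.89, 1.85 and 1.86 in HS_Lasp. The 3 HS ratios were the highest of the 9, and HS_Lasp overlapped control. These sums follow their most abundant members. Without EPRS1 the ratio was 1.12 to 1.19 in control, 1.29 to 1.76 in HS and 1.04 to 1.205 in HS_Lasp, and without RARS2 it was 4.35 to 4.75, 6.60 to 7.83 and 4.19 to 6.27. HS lay above control and above HS_Lasp in both versions. No p-value was computed for these sums, and the HS ratios spread over 0.386 (SD, n = 3) against 0.0212 in HS_Lasp.

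**Figure D2:**
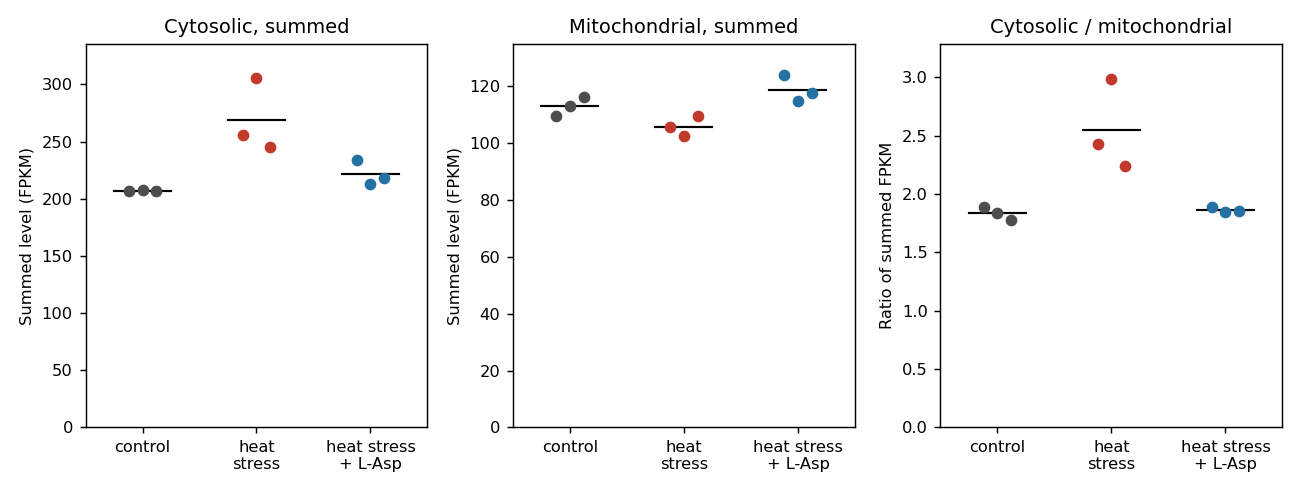
Summed deposited FPKM of the cytosolic members (left) and of the mitochondrial members (middle) and their ratio (right), with 1 point per library and a line at the group mean. The HS libraries are the highest in the cytosolic sum and in the ratio, at 2.24 to 2.98 against 1.77 to 1.89 in control.

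The comparison of HS with control asks what heat did to each transcript. No member passed the test, edgeR's quasi-likelihood F test with Benjamini-Hochberg adjustment (BH) over 15012 genes at an adjusted p of 0.05. Over all genes that test called 0%. DESeq2 called 172 of the 23507 genes in the table and none of the members, which is close to what so small a share gives. At an unadjusted p under 0.05 stood 1 of 32 members, WARS1, and 3.86% of all genes. The classes leaned in different directions all the same. Of the cytosolic members 13 of 18 had a log2 fold change above 0, with a median of 0.30, and of the mitochondrial members 5 of 14, with a median of -0.25. Over all genes tested 50.1% lay above 0 and the median was 0.00157. The cytosolic lean rested partly on 1 library, since without HS library 2 it was 10 of 18 with a median of 0.06, whereas the mitochondrial median without that library was -0.26. Scaled by library totals alone, the median of all genes moved to 0.19, and 16 of 18 cytosolic and 6 of 14 mitochondrial members lay above 0.

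In 4 of 32 members every HS library lay above every control library, and in another 4 below. The same held for 13.6% of all genes tested in the higher and 19% in the lower direction, so these shares are close to the background. The members on the higher side were EPRS1, RARS1, NARS1 and CARS1, all cytosolic, and those on the lower side were WARS1, VARS1, IARS2 and EARS2.

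EPRS1 had 500.3, 507 and 499 CPM in control, 654, 674 and 647 in HS, and 503, 554 and 498 in HS_Lasp. The HS libraries stood apart from all others, and HS_Lasp overlapped control. HS exceeded control by 0.39 ± 0.25 (SE) on the log2 scale, with an unadjusted p of 0.150 and a BH-adjusted p of 1 in edgeR. RARS1 had the same shape, with 37.9, 39.2 and 37.5 CPM in control, 56.7, 72.7 and 56.0 in HS, and 44.8, 35.8 and 39.6 in HS_Lasp. Its difference between HS and control was 0.69 ± 0.35 (edgeR, unadjusted p = 0.0715, adjusted p = 1). Both proteins sit in the multisynthetase complex. NARS1, which works outside the complex, was at 29.0, 29.3 and 28.4 CPM in control, 45.6, 35.4 and 37.1 in HS, and 42.8, 31.7 and 45.2 in HS_Lasp. Both heated groups lay above control for this gene and overlapped each other, with 0.45 ± 0.38 for HS against control.

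WARS1, the cytosolic tryptophan enzyme, had the smallest p of the set. It was at 28.3, 31.3 and 28.8 CPM in control, 12.7, 17.8 and 7.55 in HS, and 10.5, 17.6 and 18.2 in HS_Lasp. Every heated library was below every control library, with or without L-Asp. The difference was -1.22 ± 0.53 for HS (edgeR, unadjusted p = 0.0402, adjusted p = 1) and -0.93 ± 0.53 for HS_Lasp. Its mitochondrial counterpart WARS2 showed no such gap, with 19.7, 19.8 and 22.0 CPM in control, 19.3, 30.6 and 18.1 in HS, and 25.5, 16.4 and 11.98 in HS_Lasp.

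IARS2, the second most abundant mitochondrial member, had 153.6, 149.7 and 160.4 CPM in control, 105, 113 and 88.0 in HS, and 136, 85.3 and 151 in HS_Lasp. The HS libraries were all below control, while HS_Lasp library 2 was lower than any of them and the other two reached near control. The HS difference was -0.60 ± 0.34 (edgeR, unadjusted p = 0.102, adjusted p = 1). RARS2 did not separate the groups, with 280.2, 292 and 291 CPM in control, 278, 197 and 315 in HS, and 297, 315 and 257 in HS_Lasp.

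The other abundant cytosolic members were also mixed. KARS1 was at 210.3, 199 and 206 CPM in control, 163, 231 and 247 in HS, and 217, 195 and 239 in HS_Lasp. TARS1 was at 193, 199 and 194 CPM in control, 218, 161 and 173 in HS, and 182, 135 and 131 in HS_Lasp, so that only HS_Lasp lay wholly below control. LARS1 showed how far heated libraries could differ, with 132, 134 and 130.2 CPM in control against 219.8, 113 and 65.3 in HS and 126, 50.0 and 62.2 in HS_Lasp. The 95% interval of the HS difference lay within 1 log2 unit of 0 on both sides for 4 members, EPRS1, KARS1, TARS1 and RARS2. It was -0.61 to 0.73 for KARS1 and -0.80 to 0.54 for RARS2, so for these a change of more than 2-fold lies outside the interval. For the other 28 tested members the interval reached beyond 1 log2 unit on at least 1 side, so a shift of that size lies inside it.

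**Figure D3:**
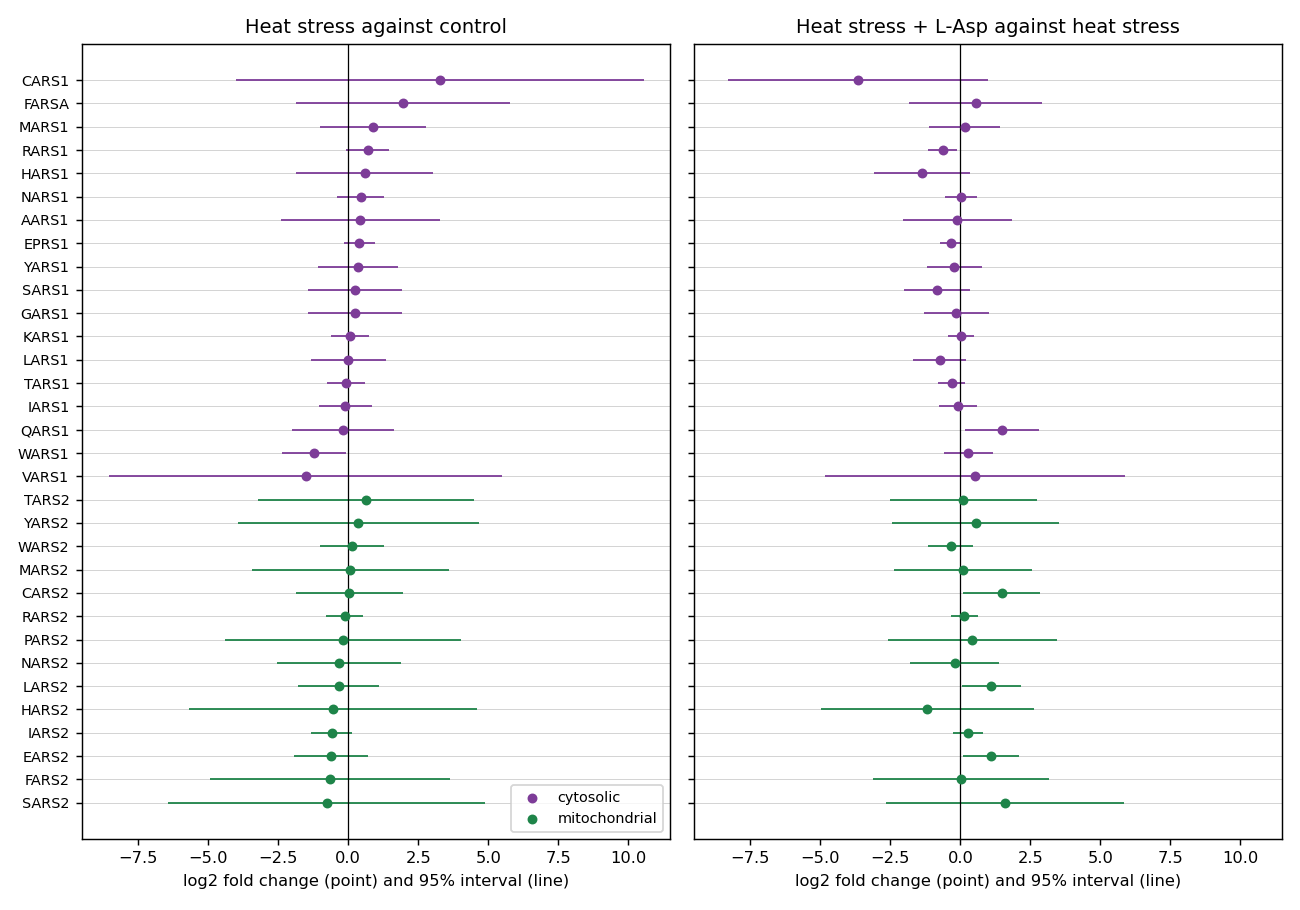
Log2 fold change (point) with its 95% interval (line) of the 32 tested synthetase genes for HS against control (left) and HS_Lasp against HS (right), cytosolic genes in purple and mitochondrial genes in green, ordered within each class by the left panel. Intervals are narrow for abundant genes such as EPRS1 and RARS2 and span several log2 units for CARS1 and VARS1, and nearly all of them cross 0.

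The comparison of HS_Lasp with HS asks what L-Asp changed during heat. Again no member passed the adjusted threshold in edgeR, which called 0% of 15012 genes. DESeq2 called 183 of the 23507 genes in the table with no member among them, again close to that small share. At an unadjusted p under 0.05 stood 5 of 32 members, RARS1 lower and QARS1, EARS2, CARS2 and LARS2 higher, beside 6.61% of all genes, a somewhat larger share than the background. The lean of each class was opposite to that in the heat comparison, but both use the same HS libraries and are not independent. Of the cytosolic members 7 of 18 lay above 0, with a median of -0.12, and of the mitochondrial members 11 of 14, with a median of 0.21. Over all genes 49% lay above 0, and the median was -0.0102. The cytosolic median was 0.03, with 9 of 18 above 0, when HS library 2 was left out, so its sign depended on that library. It was -0.40 without HS_Lasp library 1, when the mitochondrial median was 0.51. The 95% interval lay within 1 log2 unit of 0 for 7 members, EPRS1, IARS1, KARS1, NARS1, TARS1, IARS2 and RARS2.

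EARS2, which charges mitochondrial tRNA with glutamate, was at 8.63, 9.06 and 9.45 CPM in control, 3.40, 5.75 and 8.60 in HS, and 9.97, 12.1 and 15.9 in HS_Lasp. The 3 groups did not overlap, with HS lowest and HS_Lasp highest, although HS library 3 all but reached the lowest control library. HS_Lasp exceeded HS by 1.09 ± 0.45 on the log2 scale (edgeR, unadjusted p = 0.0323, adjusted p = 0.738). LARS2, for mitochondrial leucine, was at 3.91, 5.23 and 5.45 CPM in control, 2.78, 4.42 and 4.38 in HS, and 7.64, 7.03 and 10.2 in HS_Lasp. HS_Lasp stood above both other groups, by 1.10 ± 0.48 against HS (edgeR, unadjusted p = 0.0410, adjusted p = 0.738).

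QARS1, the cytosolic glutamine enzyme of the complex, also stood highest with L-Asp. It had 2.07, 3.32 and 3.04 CPM in control, 1.64, 4.29 and 1.54 in HS, and 6.24, 5.98 and 8.57 in HS_Lasp. Its HS_Lasp libraries lay above the other 6, by 1.48 ± 0.60 against HS (edgeR, unadjusted p = 0.0312, adjusted p = 0.738). CARS2, for mitochondrial cysteine, was uneven, with 2.69, 5.07 and 5.22 CPM in control, 4.64, 5.08 and 3.68 in HS, and 9.83, 3.46 and 23.9 in HS_Lasp. HS_Lasp library 2 was below every HS library and library 3 was the highest of the 9, so the groups overlapped. The difference against HS was 1.47 ± 0.62, and it was 0.57 without HS_Lasp library 3 and 1.94 without library 2.

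RARS1 and EPRS1 were lower with L-Asp than with heat alone in every library, and their HS_Lasp values overlapped the control. The RARS1 difference was -0.62 ± 0.24 (edgeR, unadjusted p = 0.0229, adjusted p = 0.738), and that of EPRS1 was -0.35 ± 0.18 (edgeR, unadjusted p = 0.0740, adjusted p = 0.738). With CARS1 they were the 3 tested members whose HS_Lasp libraries all lay below HS, and QARS1, LARS2 and EARS2 were the 3 tested members that all lay above. VARS2, which was not tested, was at 0.223, 0.0808 and 0.166 CPM in HS_Lasp, under the floor in each. Among all genes tested 5.54% were lower and 6.31% higher without overlap. CARS1 was at 0.0810, 0.324 and 0.115 CPM in control, 1.03, 3.18 and 0.914 in HS, and 0, 0 and 0.403 in HS_Lasp. Outside HS it lay at or near the floor of 3 fragments, so no fold is given.

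**Figure D4:**
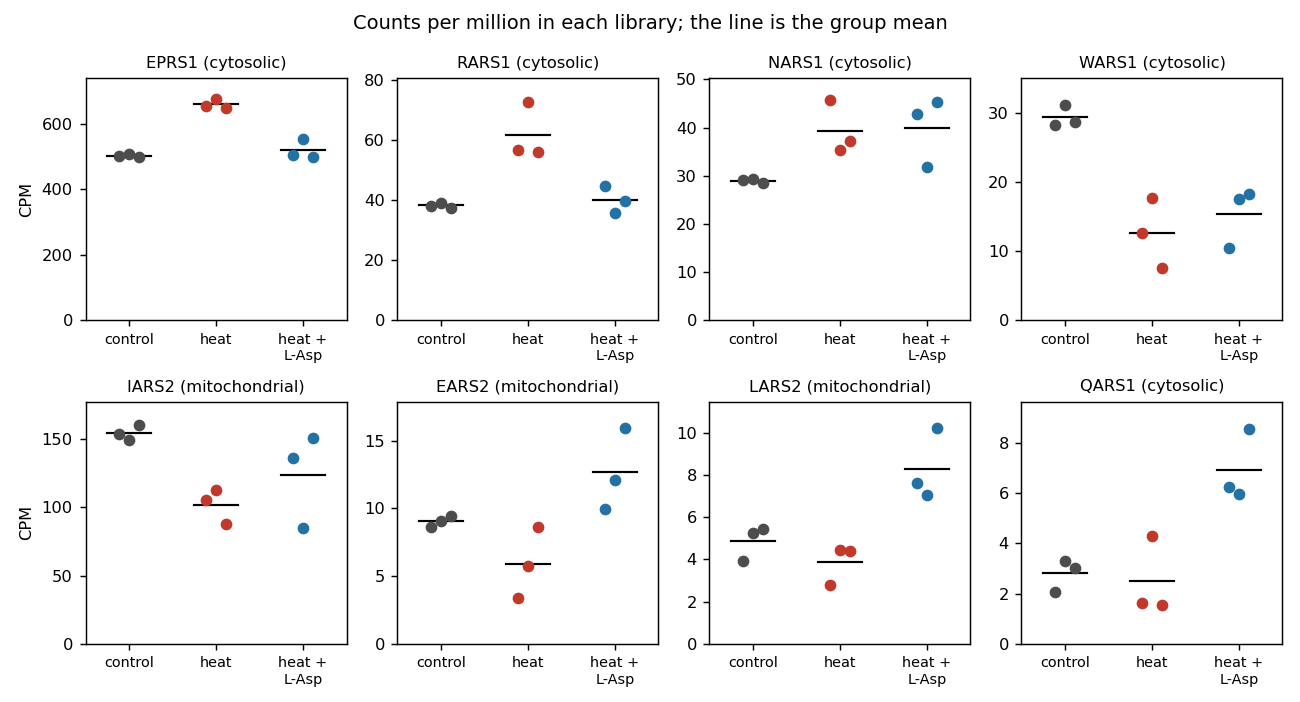
CPM of 8 synthetase genes in each library, 1 panel per gene, with points coloured by group and a line at the group mean. EPRS1 and RARS1 are highest in HS, WARS1 is lower in both heated groups than in control, and LARS2 and QARS1 are highest in HS_Lasp.

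Against control, HS_Lasp gave no call among the members either, and edgeR called 0% of 15012 genes. DESeq2 called 64 of the 23507 genes in the table, with no member, which is close to that small share. At an unadjusted p under 0.05 stood 0 of 32 members and 3.22% of all genes. Of the cytosolic members 10 of 18 lay above 0, with a median of 0.06, and of the mitochondrial members 9 of 14, with a median of 0.20. Over all genes 50.5% lay above 0. Without HS_Lasp library 1 the cytosolic median was -0.09 and the mitochondrial one 0.59, and without library 2 the mitochondrial one was -0.02. In 5 members (NARS1, QARS1, LARS2, FARSA and EARS2) HS_Lasp lay wholly above control and in 6 (IARS1, LARS1, SARS1, TARS1, FARS2 and WARS1) wholly below. The background shares were 14.2% and 19.6%. The members of smallest p were WARS1, CARS2, QARS1 and FARSA, with CARS2 at 1.51 ± 0.95 and QARS1 at 1.29 ± 0.90. Without HS_Lasp library 3 the CARS2 difference was 0.61.

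Of the 32 tested members, 16 overlapped between groups in all 3 comparisons. RARS2 and KARS1 were among them, as were GARS1, YARS1, AARS1 and MARS1. The only 3 that were higher in HS than in both other groups without overlap were EPRS1, RARS1 and CARS1, and EARS2 was the only one with HS below and HS_Lasp above control. These joint patterns were not counted over all genes tested, so no background share stands beside them.

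For amino acids with a gene in each class, the pair members did not always lie on the same side of 0 under heat. FARSA and FARS2 encode phenylalanine enzymes for the cytosol and for mitochondria. FARSA was at 0.952, 0.877 and 0.654 CPM in control, 0.0608, 6.49 and 2.996 in HS, and 2.49, 4.39 and 7.06 in HS_Lasp. HS library 1, below the floor of 3 fragments, was under control and the other 2 above it, while HS_Lasp was above control throughout. FARS2 was at 1.01, 1.41 and 1.23 CPM in control, 0.223, 0.623 and 1.48 in HS, and 0.709, 0.869 and 0.805 in HS_Lasp. The HS differences were 1.95 ± 1.74 and -0.66 ± 1.95, and that of FARSA was 0.90 without HS library 2. Neither passed the test.

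HARS1 and HARS2 lie head to head on chromosome 2 in the table's coordinates, for which the sources used here give no genome build. HARS1 spans 142385872 to 142401208 on the minus strand and HARS2 spans 142401328 to 142409619 on the plus strand, with 119 bases between them. HARS1 was at 4.54, 3.03 and 4.23 CPM in control, 8.71, 2.38 and 6.50 in HS, and 1.46, 4.63 and 0.758 in HS_Lasp. HARS2 was at 1.19, 2.27 and 1.60 CPM in control, 2.15, 0.701 and 0.642 in HS, and 1.34, 0 and 0.189 in HS_Lasp. Neither gene separated the groups, and in both the heated libraries spread more widely than the control. HARS1 also overlaps DND1 on the same strand by 1328 bases, and DND1, a germ cell RNA-binding protein, was at 46.7 CPM in control.

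The least abundant members mostly carried too few counts to compare. VARS1 was at 0.445, 0.439 and 0.597 CPM in control, 0.425, 0.0779 and 0 in HS, and 0.547, 0.182 and 0 in HS_Lasp. SARS2, for mitochondrial serine, was at 0.385, 0.458 and 0.712 CPM in control, 0.182, 0.740 and 0 in HS, and 0.547, 1.05 and 1.21 in HS_Lasp. Several heated libraries of both genes thus lay under 3 fragments. TARS2 was at 1.13, 0.858 and 0.712 CPM in control, 1.07, 1.03 and 2.04 in HS, and 0.466, 0.445 and 3.58 in HS_Lasp. YARS2, for mitochondrial tyrosine, was at 0.547, 1.35 and 2.41 CPM in control, 0, 1.93 and 3.64 in HS, and 0.912, 3.46 and 3.74 in HS_Lasp. In both the groups overlapped. MARS2, NARS2 and PARS2 were each scattered in HS_Lasp, from 0.284 to 4.61, from 0.788 to 10.0 and from 0 to 3.72 CPM.

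Of the 33 members 8 overlap another gene in the table. The labels describe no step that marks strand, so reads from overlapping stretches may not be separable. Overlap was taken from the start and end of each gene, so it includes introns, and the overlap of exons was not computed. RARS2 (chromosome 1, 55906512 to 55982035) shares 27877 bases with ORC3 on the opposite strand, which was at 67.5 CPM in control against 288 for RARS2. IARS2 (chromosome 10, 9685678 to 9737159) shares 2392 bases with RAB3GAP2, at 88.1 CPM, and KARS1 (chromosome 6, 12056571 to 12073748) shares 878 bases with TERF2IP, at 136 CPM. YARS2 shares 13762 bases with DNM1L, which at 60.7 CPM exceeded the 1.44 CPM of YARS2 itself, so the YARS2 value is uncertain. HARS1, at 3.92 CPM in control, overlaps DND1 at 46.7 CPM, and CARS2, at 4.35 CPM, overlaps NAXD at 4.37 CPM. MARS1, at 4.68 CPM, overlaps ARHGAP9 at 3.86 CPM and DDIT3 at 51.3 CPM. The values of HARS1, CARS2 and MARS1 are thus uncertain too. IARS1 also overlaps a gene, which was at 0 CPM in control. EPRS1 (chromosome 10, 9579304 to 9648398), RARS1 (chromosome 16, 55373727 to 55412112) and WARS1 (chromosome 7, 121212981 to 121238113) overlap no other gene of the table. Without the 8 overlapping members the class ratio was 11.6 to 13.2 in control, 13.8 to 19.1 in HS and 11.4 to 12.03 in HS_Lasp, with HS again highest in every library.

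The members were also grouped by particle and by structure. The 7 complex members had median differences of 0.06 in HS against control and -0.07 in HS_Lasp against HS, and the 11 other cytosolic members 0.34 and -0.14. Class I and class II synthetases differ in the fold of their catalytic domain. The 17 tested class I members had medians of 0.01 and 0.16, and the 14 tested class II members 0.15 and -0.04. No test of these lists was made.

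The proteins that work beside the synthetases were read from lists of their own. None of their genes was called in HS against control, where edgeR called 0% of all genes tested. The scaffold genes of the complex came first. EEF1E1 had 16.4, 17.0 and 17.6 CPM in control, 39.9, 33.1 and 24.0 in HS, and 21.5, 39.4 and 24.1 in HS_Lasp, all heated libraries above control. AIMP1 and AIMP2 differed from control by 0.48 ± 0.38 and 0.84 ± 0.72.

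Charged tRNAs are then taken to a ribosome or corrected on the way. Of the mitochondrial charging partners 8 were tested, 6 lay above 0 and the median was 0.08. TUFM, the mitochondrial elongation factor that carries charged tRNA, had 4.11, 4.27 and 4.54 CPM in control, 7.76, 7.54 and 14.0 in HS, and 14.5, 14.5 and 15.1 in HS_Lasp. Its heated libraries all lay above control, by 1.18 ± 0.58 for HS (edgeR, unadjusted p = 0.0656, adjusted p = 1). Of 4 tested cytosolic delivery factors, with EEF1E1 counted again, 3 lay above 0, with a median of 0.50. EEF1D and EEF2 lay near 0, at 0.08 and -0.02, and EEF1A1 and EEF1G were not found under these symbols. EEF1B2, an exchange factor for the factor that carries charged tRNA, had 35.4, 38.1 and 36.2 CPM in control against 83.2, 81.5 and 71.5 in HS, and 63.4, 70.3 and 35.9 in HS_Lasp. That is 1.10 ± 0.41 for HS against control (edgeR, unadjusted p = 0.0218, adjusted p = 1). Of 17 genes for tRNA ends, splicing and editing 10 lay above 0, with a median of 0.21. CLP1, a kinase of tRNA splicing, was below control in HS at 12.5, 10.8 and 9.45 CPM against 17.4, 18.2 and 16.7, and stood at 19.9, 16.9 and 22.5 in HS_Lasp. TRNT1, which adds the CCA end to tRNA, and DDX1, of the tRNA ligase complex, lay above control in every HS library, by 0.54 ± 0.39 and 0.27 ± 0.29. In this list 3 of 17 genes lay wholly above control in HS and 1 wholly below, beside 13.6% and 19% of all genes tested. Wholly above lay 1 of 8 mitochondrial partners, 2 of 4 delivery factors and 2 of 7 scaffold and other synthetase genes, and 0 of each wholly below.

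The ATF4 programme was read from 28 genes, of which 26 were tested and 15 lay above 0 in HS against control, with a median of 0.09. ATF4 was at 48.8, 46.2 and 48.5 CPM in control, 105, 88.9 and 80.5 in HS, and 86.9, 63.1 and 72.8 in HS_Lasp. ASNS, the asparagine synthetase that makes asparagine from aspartate and a widely used ATF4 target, was at 139, 145 and 138 CPM in control, 306, 287 and 243 in HS, and 215, 273 and 269.9 in HS_Lasp. SLC38A2, a neutral amino acid transporter, was at 5.20, 6.31 and 6.08 CPM in control, 11.95, 13.8 and 22.7 in HS, and 7.28, 11.8 and 8.81 in HS_Lasp. Every heated library lay above control for these 3 genes, by 0.94 ± 0.34, 0.98 ± 0.30 and 1.46 ± 0.61 in HS. The smallest adjusted p of them in edgeR was 0.761, for ASNS. Beside 13.6% of all genes tested above and 19% below, 6 of its 26 tested genes lay wholly above control in HS and 6 wholly below. Among the lower ones PSAT1, an enzyme of serine synthesis, was at 5.35, 4.44 and 5.64 CPM in control, 1.22, 0.409 and 1.71 in HS, and 3.71, 1.13 and 4.57 in HS_Lasp. TRIB3, a pseudokinase that ATF4 induces in other cells, was at 5.67, 6.50 and 4.54 CPM in control, 1.82, 1.23 and 2.22 in HS, and 4.11, 2.57 and 3.60 in HS_Lasp.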

How the data were processed

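Polyadenylated RNA of pig MII oocytes was sequenced in 3 groups of 3 libraries, grouped by sample title. The deposited table gives a count per gene and library and the authors' FPKM, per the file headers. Counts were used as deposited and FPKM for levels per length. DESeq2, edgeR, StringTie 2.1.6, HISAT2 2.2.1 and cutadapt 1.9 stand in the submitters' processing notes with no role, and the sources used here give no genome build. The table's 6 further columns of per-sample values were not used. Per the labels' protocols, cDNA was primed with oligo(dT) and amplified by PCR, and neither strand nor molecular identifiers are described, so intervals cover less than all error.

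Counts were filtered with filterByExpr on 9 libraries (15012 genes), scaled by TMM and tested with edgeR 4.0.16 (glmQLFit robust, glmQLFTest, R 4.3.3), with BH adjustment over all genes. Since control libraries differed from each other far less than the heated ones, they entered as their rounded mean. This leaves 7 libraries and 4 residual degrees of freedom, with 1 estimate of the spread shared by all groups. CPM of a control library uses its own total and the averaged library's TMM factor. Scripts were tested on simulated data. DESeq2 1.42.0, other scalings, filters and left-out libraries were alternatives. Members with values in every library were the 6, 6 and 4 of smallest p in the 3 comparisons, the 3 most and 3 least abundant tested members of each class, and pairs for 1 amino acid on opposite sides of 0 by at least 0.5. Most genes named from the lists of partners and of the ATF4 programme were among the 3 of smallest p of their list in HS against control. LARS1, PSAT1, TRIB3, the single cumulus markers and the overlapping genes were named after their values were seen. The members, lists and averaging of the control were chosen with earlier results of these data known. Some genes that the rule gives are left out of the text.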

Additional observations from a re-analysis of the deposited data

How the results depend on the processing

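HS against control and HS_Lasp against control were each recomputed under 19 alternatives and HS_Lasp against HS under 21, and no member passed the adjusted threshold in any. Each of the 16 differences listed for the members of smallest p kept its sign under the alternatives of its comparison. These members were chosen by p in the same data and the alternatives reuse most of the libraries, so the kept signs are no independent check. Counts of called genes in HS against control, HS_Lasp against HS and HS_Lasp against control were 0 in each and moved to 433, 2 and 269 with the control libraries as 3 replicates in a fit of 9 libraries. They were 172, 183 and 64 with DESeq2 and 9, 2 and 3 with no filter, and 2 for HS_Lasp against HS with the filter on 7 libraries. Leaving out 1 library at a time gave 0 to 1, 0 to 3 and 0 to 1.

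Same-numbered HS and HS_Lasp libraries had deviations that correlated at 0.18, -0.05 and 0.05. Pairs of unlike number ran from -0.14 to 0.10. With 3 libraries per group this cannot decide whether same-numbered libraries share an origin, and the main fit used no pairing. With a replicate block in the fit of 9 libraries the counts were 378 in HS against control and 223 in HS_Lasp against control, and the mitochondrial median in HS_Lasp against control was -0.0664.

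Leaving out 1 library at a time, the mitochondrial median ranged from 0.20 to 0.51 in HS_Lasp against HS and from -0.0153 to 0.59 in HS_Lasp against control, and the cytosolic median in HS_Lasp against HS from -0.40 to 0.0322. The class ratio in control, HS and HS_Lasp was 1.15, 1.49 and 1.14 without EPRS1, 4.60, 7.25 and 5.15 without RARS2, and 12.4, 16.3 and 11.6 without the members that overlap another gene, all 3 chosen after seeing the data. In counts per kilobase scaled by TMM, HS_Lasp stood at 0.982 times control for the cytosolic class and 0.965 times for the mitochondrial class, and HS at 0.846 times control for the mitochondrial class. The cause of these shifts was not tested. A planned search of promoters for a motif was not run. Depth limits the members under about 1 CPM, and for most others the spread between heated libraries, not depth, sets the interval.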
